A study of Mus musculus with 6 samples.

Results

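A set of neutrophil lineage genes was followed through RNA sequencing of mouse macrophages. They are 10 of the 55401 genes in the deposited matrix, taken by symbol: the early granule genes Elane, Mpo and Prtn3, the late granule genes Ltf, Camp, Ngp and Lcn2, the S100 genes S100a8 and S100a9, and the transcription factor gene Cebpe. They were chosen by their measured counts, which in 1 library, siNC 2, were far above those in the rest. Their height in that library is therefore a description here and not a finding. All 10 passed the filter on low counts. Their Ensembl identifiers are ENSMUSG00000020125 (Elane), ENSMUSG00000009350 (Mpo), ENSMUSG00000057729 (Prtn3), ENSMUSG00000032496 (Ltf), ENSMUSG00000038357 (Camp), ENSMUSG00000032484 (Ngp), ENSMUSG00000026822 (Lcn2), ENSMUSG00000056054 (S100a8), ENSMUSG00000056071 (S100a9) and ENSMUSG00000052435 (Cebpe).

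The cells were bone marrow-derived macrophages (BMDMs) of C57BL/6 mice, grown from bone marrow in culture. In 3 libraries they carried an siRNA against Piezo1 (siPiezo1), a mechanically gated cation channel, and in 3 a negative-control siRNA (siNC). Cells of both groups were stretched for 4 h, so siPiezo1 against siNC under stretch is the comparison made. Nothing in the labels says whether replicates are separate cultures or animals, and p-values may measure technical spread only.

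Neutrophils form in the bone marrow and fill their granules in sequence. Primary, or azurophil, granule proteins such as neutrophil elastase, myeloperoxidase and proteinase 3 are made at the promyelocyte stage. Secondary granule proteins such as lactoferrin and the cathelicidins follow at the myelocyte stage, under the factor C/EBP epsilon. S100A8 and S100A9 pair to form calprotectin, a calcium-binding protein that fills the cytosol of neutrophils and is also made by monocytes. Lcn2 and the S100 genes can in addition be induced in macrophages by inflammatory signals.

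Library totals were 61086684 to 75052745 estimated counts. From the spacing of low values in the matrix, about 3.88 of these were inferred to stand for 1 sequenced fragment. That gives about 15.7 to 19.3 M fragments. All fragment numbers and Poisson intervals below rest on this inferred step, which the sources used here do not state. Lyz2, a lysozyme gene, stood at 25596 to 26819 CPM (counts scaled to a common library size) in siPiezo1 and at 20623 to 24964 CPM in siNC. Piezo1 stood at 111, 109 and 113 CPM in siPiezo1 and at 180, 285 and 189 CPM in siNC. Library siNC 2 stood apart: 376 of 12416 genes with a mean of at least 1 CPM, or 3.03%, were more than 2 times as high there as in any other library. The same count was 4 to 16 genes in each of the other 5 libraries. All 10 neutrophil genes were among the 376, and 6 of them (Elane, Mpo, Prtn3, S100a8, S100a9 and Cebpe) were more than 5 times as high, where 0.854% of the genes were. The 10 genes were chosen for their height in siNC 2, so these shares do not measure enrichment.

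Sequence just upstream of the start was available from RefSeq (build GRCm38.p6, 250 bases before the start) for 9 of the 10 genes, all but Cebpe. It is shown for the early genes and for Ltf and Ngp because these stretches differ in the words they hold. Capitals mark GAGGAAGT, a word bound by the ETS factor PU.1, CAACGG, a word bound by MYB, and TTGCNNAA, a C/EBP word. Each was searched on both strands, so a match on the other strand is printed as its complement read backwards, and the words share no bases. The words were chosen after the sequences had been read.
Elane (chr10:79886062-79886311, + strand): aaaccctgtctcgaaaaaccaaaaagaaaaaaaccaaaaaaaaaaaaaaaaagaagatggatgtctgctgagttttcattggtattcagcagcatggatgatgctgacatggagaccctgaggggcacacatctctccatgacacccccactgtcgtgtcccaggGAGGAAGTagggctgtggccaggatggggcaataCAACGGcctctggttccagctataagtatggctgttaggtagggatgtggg
Prtn3 (chr10:79879417-79879666, + strand): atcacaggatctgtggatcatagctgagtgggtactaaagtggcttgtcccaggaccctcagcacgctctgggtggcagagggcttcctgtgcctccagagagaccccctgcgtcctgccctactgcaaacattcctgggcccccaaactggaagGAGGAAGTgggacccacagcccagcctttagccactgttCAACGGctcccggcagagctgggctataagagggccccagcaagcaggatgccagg
Mpo (chr11:87793534-87793783, + strand): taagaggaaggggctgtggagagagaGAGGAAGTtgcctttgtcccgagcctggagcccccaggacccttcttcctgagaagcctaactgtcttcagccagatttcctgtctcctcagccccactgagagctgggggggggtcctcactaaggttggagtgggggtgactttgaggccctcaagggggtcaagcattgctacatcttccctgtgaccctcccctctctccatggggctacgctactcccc
Ltf (chr9:111019042-111019291, + strand): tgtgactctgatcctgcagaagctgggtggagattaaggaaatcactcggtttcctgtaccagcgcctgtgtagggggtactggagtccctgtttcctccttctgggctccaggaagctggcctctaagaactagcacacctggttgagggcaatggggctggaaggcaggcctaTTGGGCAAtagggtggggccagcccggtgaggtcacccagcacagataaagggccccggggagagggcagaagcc
Ngp (chr9:110419558-110419807, + strand): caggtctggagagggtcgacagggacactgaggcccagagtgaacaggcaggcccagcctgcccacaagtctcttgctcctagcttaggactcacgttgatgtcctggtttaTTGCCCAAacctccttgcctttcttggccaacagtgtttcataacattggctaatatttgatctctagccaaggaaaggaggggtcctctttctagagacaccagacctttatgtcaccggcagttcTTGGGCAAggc

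GAGGAAGT occurred upstream of 3 of the 3 early granule genes and of 0 of the 4 late ones, against 2.44% of all 32851 promoters. It lay on the gene's strand at 85 bases before the start of Elane, 95 before Prtn3 and 224 before Mpo. CAACGG followed it in Elane and Prtn3, 51 and 56 bases before the start, and was held by 4.05% of all promoters. TTGCNNAA occurred upstream of 0 of the 3 early and 3 of the 4 late genes (Ltf, Ngp and Lcn2), and in 9.56% of all promoters. Of the S100 genes, S100a8 held GAGGAAGT on the other strand and S100a9 held TTGCNNAA. TATAAA, the TATA box word, was found in S100a8 alone of the 9 genes, and in 12.4% of all promoters. A match is a run of letters and does not show that a factor was bound. In the reference order of coding genes, Prtn3 is the neighbour of Elane on chromosome 10 and S100a8 that of S100a9 on chromosome 3. Ltf, Camp and Ngp lie on chromosome 9, Mpo on 11, Lcn2 on 2 and Cebpe on 14.

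The early granule genes had low levels in 5 libraries and a high level in siNC 2. Elane, which encodes neutrophil elastase, stood at 0.853, 1.51 and 3.56 CPM in siPiezo1 and at 1.38, 46.2 and 1.17 CPM in siNC. The value in siNC 2 was 13 times the highest of the other 5 libraries and 33.4 times their median. Mpo, the peroxidase that makes hypochlorous acid, stood at 5.94, 4.21 and 21.0 CPM in siPiezo1 and at 10.3, 152 and 9.51 CPM in siNC. Prtn3, which encodes the serine protease proteinase 3, stood at 4.05, 3.05 and 7.01 CPM in siPiezo1 and at 3.36, 59.9 and 3.63 CPM in siNC. For both genes siNC 2 was highest and siPiezo1 3 came next, the ratio between them being 7.27 for Mpo and 8.54 for Prtn3. In bulk RNA, fewer cells of a type and less RNA per cell cannot be told apart.

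Apart from siNC 2, the early genes still differed between libraries of 1 group. The siPiezo1 3 value was 2.35 times the highest of the remaining 4 libraries for Elane, 2.04 times for Mpo and 1.73 times for Prtn3. These values rest on few fragments. Elane had about 61 fragments in siPiezo1 3, with an exact Poisson 95% interval of 2.72 to 4.57 CPM. In siPiezo1 1, where Elane was lowest, there were about 16 fragments (0.487 to 1.38 CPM). The Mpo interval in siPiezo1 3, 18.9 to 23.2 CPM, lay above that of each of the remaining 4 libraries, the nearest being siNC 1 at 8.73 to 12 CPM. These intervals cover counting error only and do not describe the spread between samples.

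**Figure D1:**
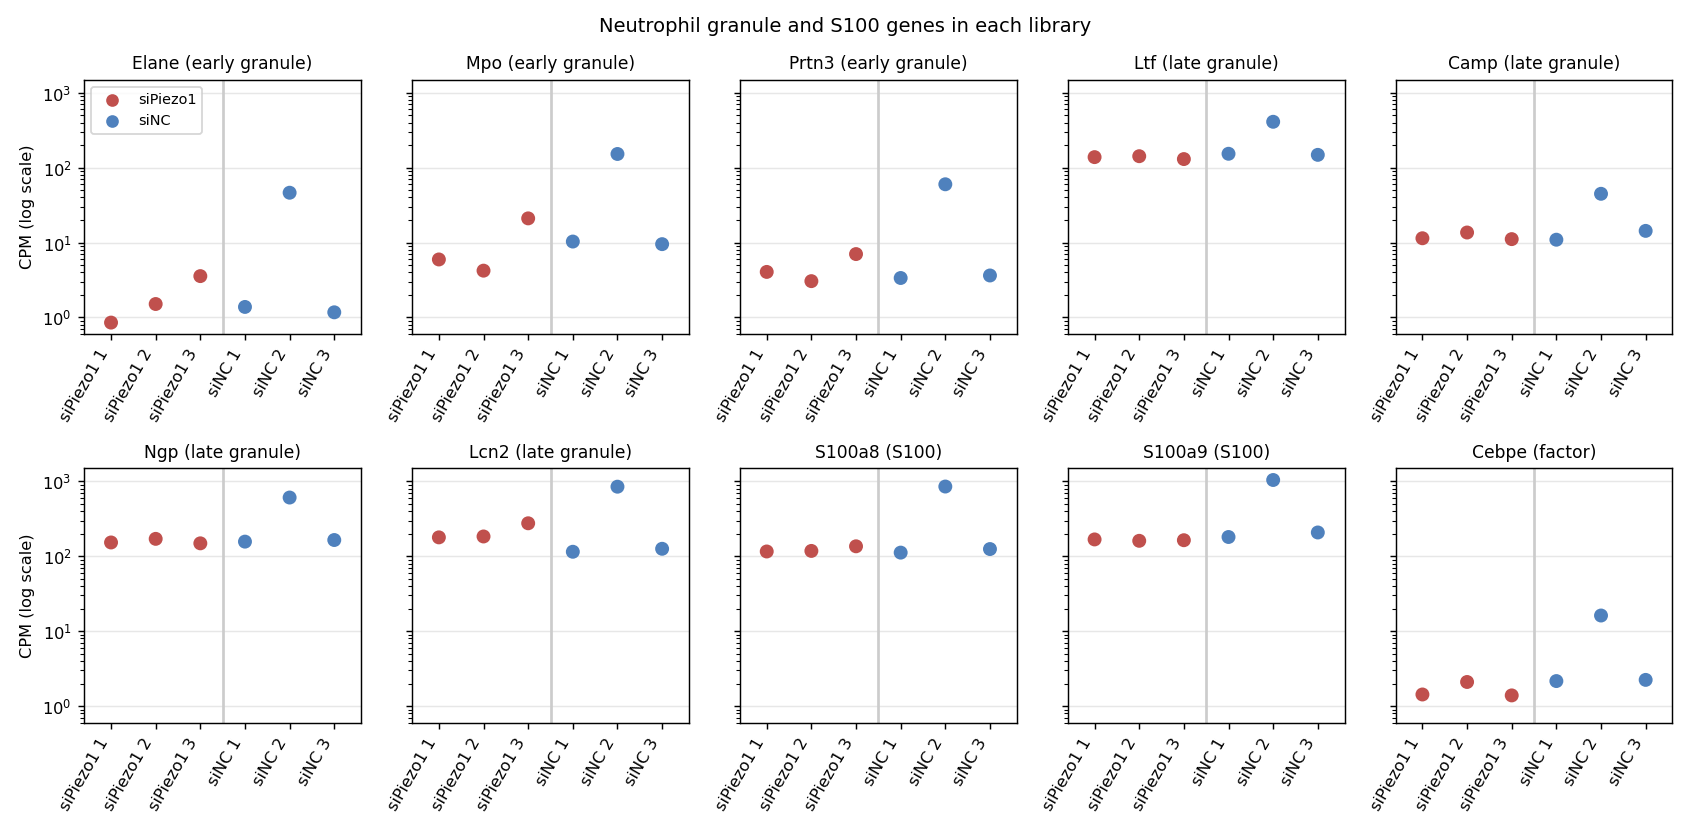
CPM (log axis) of each of the 10 genes in the 3 siPiezo1 libraries (red) and the 3 siNC libraries (blue), 1 point per library. The siNC 2 point is highest in all 10 panels, from 2.68 times the next library for Ltf to 13 times for Elane, and siPiezo1 3 comes second in the 3 early granule panels.

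Late granule genes other than Lcn2 varied little among the 5 libraries other than siNC 2. Ngp, a cathelicidin-related granule protein of mouse neutrophils, stood at 153, 171 and 149 CPM in siPiezo1 and at 157, 609 and 165 CPM in siNC. Ltf, the iron-binding protein lactoferrin, stood at 138, 142 and 130 CPM in siPiezo1 and at 153, 409 and 148 CPM in siNC. Camp, the single mouse cathelicidin antimicrobial peptide gene, stood at 11.4, 13.6 and 11.1 CPM in siPiezo1 and at 10.9, 44.7 and 14.3 CPM in siNC. In these genes siNC 2 stood at 3.56 (Ngp), 2.68 (Ltf) and 3.12 (Camp) times the highest other library. Among the 5 other libraries the highest value was only 1.15, 1.17 and 1.31 times the lowest for Ngp, Ltf and Camp. The same measure was 4.17 for Elane, 4.98 for Mpo and 2.30 for Prtn3, whose low values carry more counting error.

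Lcn2, which encodes the siderophore-binding protein lipocalin-2, followed another order. It stood at 179, 184 and 276 CPM in siPiezo1 and at 115, 850 and 126 CPM in siNC. Every siPiezo1 library was above siNC 1 and siNC 3, and siNC 2 was 3.08 times the highest siPiezo1 library. The ratio of Lcn2 to Ngp was 1.17, 1.08 and 1.86 in siPiezo1 and 0.733, 1.40 and 0.760 in siNC. By contrast the ratio of Ngp to Camp varied little, at 13.5, 12.5 and 13.4 in siPiezo1 and at 14.4, 13.6 and 11.6 in siNC.

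The S100 genes had the highest levels per kilobase of exon of the 10. S100a8 stood at 116, 118 and 136 CPM in siPiezo1 and at 112, 854 and 125 CPM in siNC. S100a9, its partner in calprotectin, stood at 168, 161 and 164 CPM in siPiezo1 and at 181, 1044 and 208 CPM in siNC. The siNC 2 values were 6.26 and 5.03 times the highest other library for S100a8 and S100a9. The ratio of S100a9 to S100a8 was 1.46, 1.36 and 1.20 in siPiezo1 and 1.61, 1.22 and 1.67 in siNC. It was thus lowest in siPiezo1 3 and siNC 2, the libraries that ranked second and first for the early granule genes.

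Cebpe, which encodes C/EBP epsilon, the factor needed for secondary granule genes, had few counts. It stood at 1.43, 2.10 and 1.39 CPM in siPiezo1 and at 2.16, 16.2 and 2.24 CPM in siNC. In siNC 2 about 315 fragments stood behind the value (exact Poisson 95% interval 14.4 to 18.1 CPM), against 24 to 41 in the other libraries. The ratio of siNC 2 to the next library, 7.22, was close to that of Mpo (7.27) and above those of the 4 late granule genes.

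Per kilobase of exon, the order of levels in siNC 2 was S100a9 (2001 CPM per kb), S100a8 (1231), Ngp (498), Lcn2 (324), Ltf (119), Camp (58.9), Elane (46.9), Mpo (44.5), Prtn3 (34.6) and Cebpe (13). Over the 5 other libraries the medians per kilobase ran from 322 CPM per kb for S100a9 to 1.41 for Elane. Ranges over those 5 libraries did not overlap for S100a9 (308 to 398 CPM per kb) and S100a8 (162 to 197), nor for S100a8 and Ngp (122 to 140), Ngp and Lcn2 (43.9 to 105), or Ltf (37.8 to 44.2) and Camp (14.4 to 18.9). Lcn2 and Ltf overlapped, and so did the early genes and Cebpe with each other. Elane was thus last in the 5 other libraries by median and above Mpo, Prtn3 and Cebpe in siNC 2.

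Early and late genes stood in different proportion in the 6 libraries. Summed, the 3 early genes were at 10.8, 8.78 and 31.5 CPM in siPiezo1 and at 15.0, 258 and 14.3 CPM in siNC. The 4 late genes summed to 481, 510 and 566 CPM in siPiezo1 and to 436, 1913 and 454 CPM in siNC. The sum of Ngp, Ltf and Camp was 27.9, 37.2 and 9.20 times the early sum in siPiezo1 and 21.4, 4.11 and 22.9 times in siNC. The proportion was lowest in siNC 2 and next lowest in siPiezo1 3. The 10 genes together took 0.0777%, 0.0801% and 0.0900% of the counts in siPiezo1 and 0.0746%, 0.409% and 0.0803% in siNC.

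Between the groups, the 10 genes had lower means in siPiezo1 when siNC 2 was kept, and 5 of them when it was left out. With all 6 libraries the log2 fold change, siPiezo1 over siNC, was below 0 for 10 of 10 genes, with a median of -1.55, against -0.01 over all 15959 genes tested. It ran from -3.04 ± 1.50 (SE) for Elane to -0.77 ± 0.78 for Lcn2. Since these genes were picked for siNC 2, that direction is fixed by the choice. In the quasi-likelihood test of edgeR, with p-values adjusted over all genes by Benjamini-Hochberg, 0 of 10 passed 0.05 (adjusted p = 0.978 to 0.991), where 0.00627% of all genes did. At an unadjusted p under 0.05 there was 1, Cebpe, where 4.93% of all genes were. DESeq2 called 0 of the 7 genes to which it gave a p, against 0.555% of all genes, with 3 of the 7 (Ltf, Camp and Cebpe) at an unadjusted p under 0.05, where 6.36% of all genes were. It returned no p for Elane, Mpo and Prtn3. The siPiezo1 libraries were all below the siNC libraries for 3 genes, Ltf, S100a9 and Cebpe, where 5.65% of all genes showed this. That share is no fair measure, since siNC 2 was highest for the 10 genes by choice. For them only siNC 1 and siNC 3 decide, and against those 2 libraries 16.2% of all genes were lower in siPiezo1.

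Without siNC 2 the direction was mixed. The log2 fold change was below 0 for 5 of 10 genes, with a median of 0.01, against 0.004 over 16442 genes. In the same edgeR test 0 of 10 passed, where 1.09% of all genes did (0.645% higher and 0.45% lower in siPiezo1). Before adjustment 2 had a p under 0.05, Lcn2 higher and S100a9 lower, where 14.3% of all genes were.

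Lcn2 had the largest log2 fold change of the 10 without siNC 2, at 0.82 ± 0.24 (SE, edgeR adjusted p = 0.251). It was the 1 gene of the 10 whose 3 siPiezo1 libraries all lay above siNC 1 and 3, where 16.7% of all genes did. S100a9 had -0.24 ± 0.07 (SE, edgeR adjusted p = 0.158). Ltf had -0.14 ± 0.06 and Cebpe -0.43 ± 0.34 (SE). These 3 were the genes whose siPiezo1 libraries all lay below siNC 1 and 3, where 16.2% of all genes did. The values for Elane (0.63 ± 0.59), Prtn3 (0.42 ± 0.35) and Mpo (0.06 ± 0.85, SE) had errors near or above their size. Those of Ngp (-0.04 ± 0.07), Camp (-0.07 ± 0.17) and S100a8 (0.06 ± 0.09, SE) lay within 1 SE of 0.

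**Figure D2:**
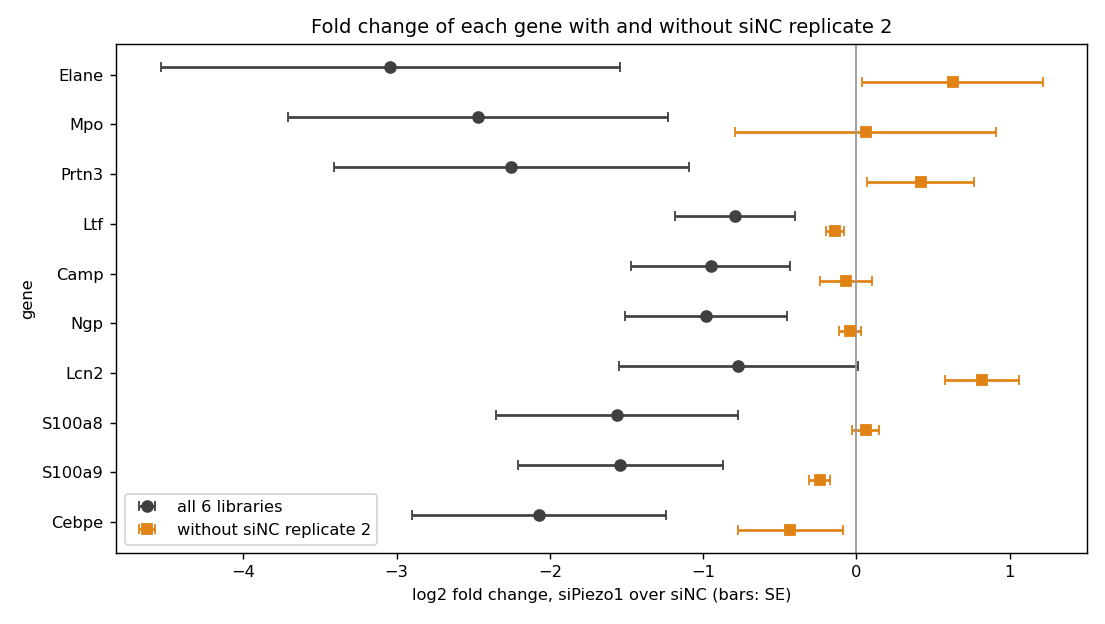
Log2 fold change of each gene, siPiezo1 over siNC, from edgeR's fit with all 6 libraries (black circles) and without siNC replicate 2 (orange squares), with bars of 1 SE. With all 6 libraries the 10 values lie between -3.04 and -0.77, and without siNC 2 they lie between -0.43 and 0.82.

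Genes of a promyelocyte list behaved unequally. Of 8 with at least 1 CPM in mean, siNC 2 was highest for 5 and lowest for 2. It was more than 2 times above the next library for 4, where 3.03% of all genes of at least 1 CPM were. The share of all genes highest or lowest in siNC 2 was not counted. Counts of highest and lowest, here and for the lists below, therefore have no baseline. Ctsg, the granule protease cathepsin G, stood at 2.32, 1.39 and 4.04 CPM in siPiezo1 and at 1.10, 73.9 and 1.14 CPM in siNC. Ms4a3, a marker of granulocyte and monocyte progenitors, stood at 1.59, 0.717 and 2.15 CPM in siPiezo1 and at 2.03, 64.1 and 1.20 CPM in siNC. These had the largest ratios of siNC 2 to the next library in that list, 18.3 and 29.8, among the 8 genes, and were picked after their values were seen. The 3 genes of the list with the highest mean CPM did not share the pattern. They were high in all 6 libraries of these macrophages, so they need not mark promyelocytes here. Hp, the acute-phase protein haptoglobin, stood at 971, 826 and 1067 CPM in siPiezo1 and at 527, 743 and 558 CPM in siNC. Igsf6 was at 373 to 423 CPM in siPiezo1 and 303 to 449 CPM in siNC, and the receptor gene Clec12a at 206 to 241 CPM in siPiezo1 and 132 to 284 CPM in siNC, both lowest in siNC 2. All 3 siPiezo1 libraries lay above all 3 siNC libraries for Hp. Its log2 fold change was 0.65 ± 0.16 with all 6 libraries (SE, edgeR adjusted p = 0.861) and 0.81 ± 0.11 without siNC 2 (SE, edgeR adjusted p = 0.0223), so that it passed the test in the second fit alone while the fold stayed near.

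In a list of 20 genes of later neutrophils, 18 had at least 1 CPM in mean, and siNC 2 was highest for 16 and lowest for 1. It was more than 2 times above the next library for 10 of the 18, where 3.03% of all genes of at least 1 CPM were. Of the surface and secreted markers of mature neutrophils, some were near 0 and some were not, and those given here were named after their values were seen. Cxcr2, a chemokine receptor of mature neutrophils, stood at 6.86, 6.65 and 5.02 CPM in siPiezo1 and at 6.32, 15.6 and 5.64 CPM in siNC. Cd177, a neutrophil surface protein, was at 10.6 to 11.4 CPM in siPiezo1 and 9.73 to 72.2 CPM in siNC, and Mmp8, the neutrophil collagenase, at 35.9 to 43.5 CPM in siPiezo1 and 31.0 to 210 CPM in siNC. All 3 were highest in siNC 2. By contrast, Ly6g stood at 0 to 0.224 CPM in siPiezo1 and 0.132 to 0.371 CPM in siNC, and Retnlg at 0.120 to 0.810 CPM in siPiezo1 and 0 to 0.822 CPM in siNC. Csf3r, the receptor of the neutrophil growth factor G-CSF, was the gene lowest in siNC 2, at 106, 114 and 100 CPM in siPiezo1 and 121, 58.7 and 132 CPM in siNC. The 3 genes with the highest mean CPM were Slpi, Anxa1 and Mmp9. Slpi, a secreted inhibitor of elastase and cathepsin G, stood at 635, 576 and 762 CPM in siPiezo1 and at 320, 889 and 316 CPM in siNC. Without siNC 2 it rose (1.05 ± 0.12, SE, edgeR adjusted p = 0.0155), and with all 6 libraries it had 0.37 ± 0.41 (SE). Mmp9, a protease of tertiary granules that macrophages also make, stood at 157, 199 and 233 CPM in siPiezo1 and at 139, 417 and 139 CPM in siNC. Anxa1 was between 275 and 284 CPM in siPiezo1 and between 265 and 346 CPM in siNC.

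**Figure D3:**
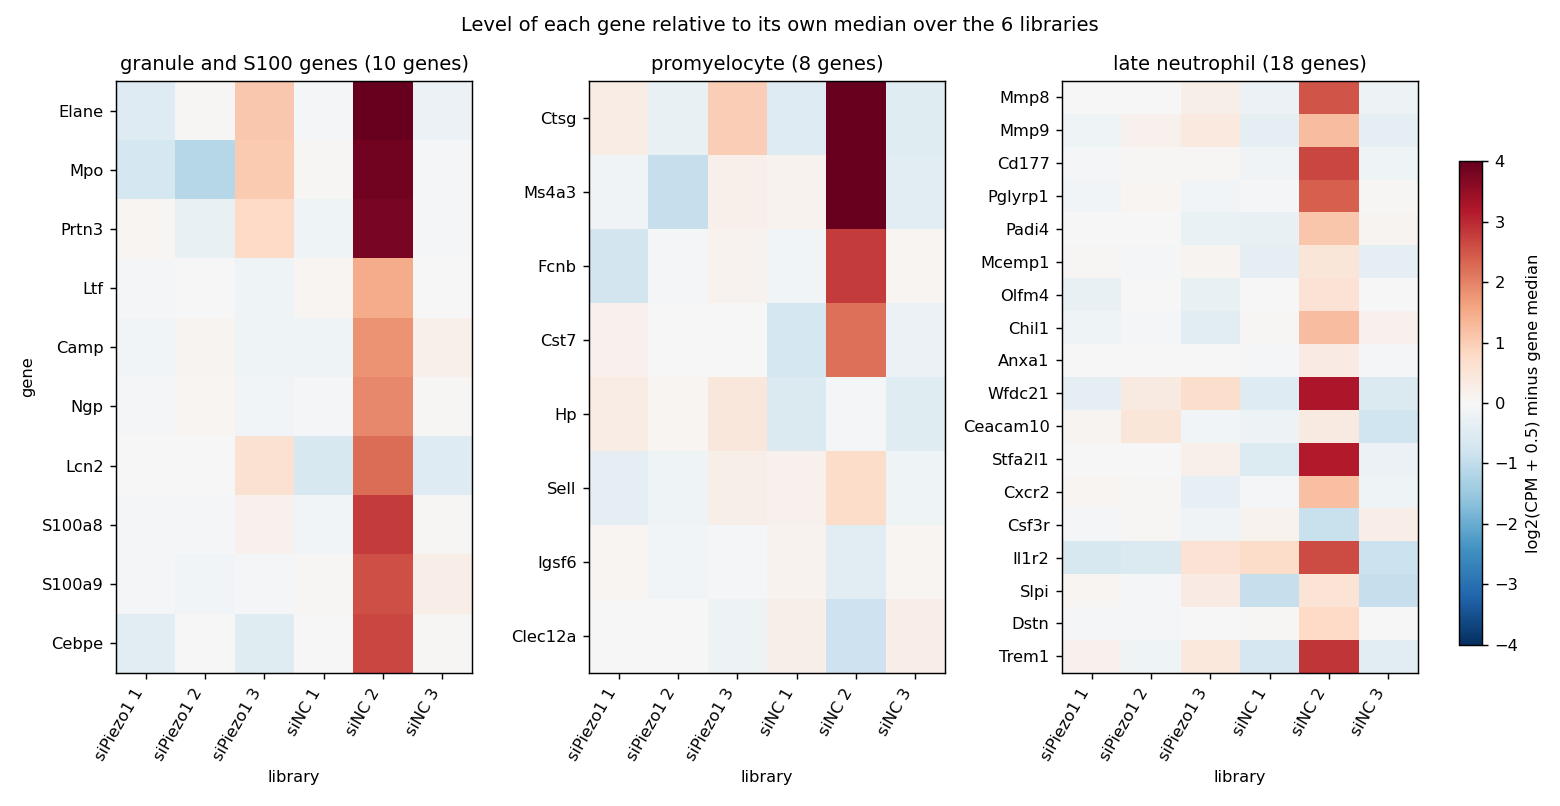
Level of each gene in each library relative to the gene's own median, as log2(CPM + 0.5), for the 10 genes and for the promyelocyte (8 genes) and late neutrophil (18 genes) lists with at least 1 CPM in mean. Library siNC 2 is darkest for the early granule genes, Ctsg and Ms4a3, and is below the median for Igsf6, Clec12a and Csf3r.

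Transcription factors of a wider list, which holds Irf8, Klf4, Id2 and Fos beside factors of granulocyte formation, did not share 1 pattern. Of 11 with at least 1 CPM in mean, siNC 2 was highest for 5 and lowest for 3. It was more than 2 times above the next library for 2, Gfi1 and Myb, named with Irf8 and Klf4 after their values were seen. Gfi1, a repressor needed for neutrophil formation, stood at 1.9, 0.677 and 1.72 CPM in siPiezo1 and at 1.63, 11.4 and 1.08 CPM in siNC. Myb, which keeps progenitors immature, stood at 4.75, 5.50 and 7.40 CPM in siPiezo1 and at 4.07, 21.4 and 2.60 CPM in siNC. Spi1, which encodes PU.1, stood at 258, 246 and 263 CPM in siPiezo1 and at 267, 243 and 274 CPM in siNC. Cebpb was at 176 to 186 CPM in siPiezo1 and at 129 to 223 CPM in siNC. Irf8, a factor of monocyte formation, stood at 90.3, 158 and 154 CPM in siPiezo1 and at 101, 65.4 and 89.5 CPM in siNC, lowest in siNC 2. Klf4 was at 10.1 to 17.2 CPM in siPiezo1 and at most 20.2 CPM in siNC, reached in siNC 2. Fos, an AP-1 subunit, stood at 40.2, 43.4 and 40.0 CPM in siPiezo1 and at 64.0, 57.4 and 60.9 CPM in siNC, and the groups did not overlap. It fell with and without siNC 2: its log2 fold change was -0.56 ± 0.10 with all 6 libraries in DESeq2 (SE, adjusted p = 9.63e-05) and -0.60 ± 0.08 without siNC 2 (SE, edgeR adjusted p = 0.0168). In edgeR with all 6 libraries it was -0.56 ± 0.09 (SE, adjusted p = 0.497). Id2 rose without siNC 2 (0.49 ± 0.06, SE, edgeR adjusted p = 0.0151) and had 0.28 ± 0.17 (SE) with all 6 libraries.

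The rest of the S100 family did not follow S100a8 and S100a9. Of 14 other family genes 6 had at least 1 CPM in mean, and for 0 of these was siNC 2 more than 2 times above the next library. S100a4 stood at 420, 350 and 421 CPM in siPiezo1 and at 279, 349 and 296 CPM in siNC. S100a6 was at 158 to 168 CPM in siPiezo1 and 129 to 166 CPM in siNC, and S100a10 at 121 to 138 CPM in siPiezo1 and 117 to 170 CPM in siNC. Without siNC 2 the median log2 fold change of the 6 family genes tested was 0.13. In that fit 0 of them passed the edgeR test, where 1.09% of all genes did, so this count does not set the family apart.

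Genes of the neutrophil oxidase and adhesion machinery, which macrophages share, also did not follow. Of 10 with at least 1 CPM in mean, siNC 2 was highest for 2 and lowest for 5, and in none was it more than 2 times above the next library. Cybb, the catalytic subunit of the oxidase, stood at 5173, 4811 and 5362 CPM in siPiezo1 and at 4483, 3494 and 4474 CPM in siNC. Itgb2 was at 1333 to 1407 CPM in siPiezo1 and 1188 to 1223 CPM in siNC, and Ncf1 at 688 to 722 CPM in siPiezo1 and 665 to 732 CPM in siNC. The receptors of calprotectin and lipocalin-2 were read as well. Tlr4 stood at 16.4, 24.5 and 133 CPM in siPiezo1 and at 141, 15.4 and 146 CPM in siNC, so that its spread within each group exceeded the difference between them. Ager was at most 0.508 CPM in siPiezo1 and 0.922 CPM in siNC, and Slc22a17 at most 0.179 CPM in either group.

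Inflammatory and acute-phase genes were high in siNC 2 together with the 10 genes. In a list of 13, siNC 2 was highest for 11 of 12 with at least 1 CPM in mean, and for 10 by more than 2 times. Ccl2, a monocyte chemokine, stood at 20.8, 25.1 and 30.8 CPM in siPiezo1 and at 16.9, 598 and 17.5 CPM in siNC. Tnf was at 85.4 to 102 CPM in siPiezo1 and 83.6 to 262 CPM in siNC. Csf3, which encodes G-CSF and was picked after its values were seen, stood at 1.22, 0.292 and 0.553 CPM in siPiezo1 and at 0.461, 64.8 and 0.748 CPM in siNC. Saa3, a serum amyloid gene, was the exception, at 6253, 6205 and 6889 CPM in siPiezo1 and 4305, 5082 and 4512 CPM in siNC. Without siNC 2 the median log2 fold change of the 13 genes tested was 0.46. In that fit 2 genes rose, where 0.645% of all genes did. They were Saa3 (0.55 ± 0.06) and the chemokine gene Cxcl3 (1.15 ± 0.15, SE), with edgeR adjusted p = 0.0113 and 0.0155. With all 6 libraries Saa3 had 0.48 ± 0.11 in edgeR and passed in DESeq2 (adjusted p = 0.00793), whereas Cxcl3 had -2.04 ± 1.25 (SE) in edgeR, siNC 2 standing at 282 CPM. The part of these genes in the levels of Lcn2 and the S100 genes was not tested.

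Markers of other cell types also differed in siNC 2. Of 14 macrophage markers siNC 2 was lowest for 13, all but Cd14, and the list summed to 53133, 51379 and 50579 CPM in siPiezo1 and to 52281, 42216 and 52850 CPM in siNC. Among them Csf1r stood at 3946 to 4463 CPM in siPiezo1 and 2290 to 4547 CPM in siNC, and Ctsd at 15023 to 16280 CPM in siPiezo1 and 14395 to 16631 CPM in siNC. Most of the siNC 2 sum came from Lyz2 (20623 CPM) and Ctsd (14395 CPM), so the sums say little of the other markers. Without siNC 2, 0 macrophage markers of the list rose in the edgeR test, where 0.645% of all genes did. The markers Apoe, Fcgr1 and Adgre1 fell in that fit, where 0.45% of all genes did. Their log2 fold changes were -1.50 ± 0.06 for Apoe, -0.46 ± 0.07 for Fcgr1 and -0.31 ± 0.05 for Adgre1 (SE). With all 6 libraries the log2 fold changes were -1.01 ± 0.63 for Apoe, -0.19 ± 0.26 for Fcgr1 and -0.16 ± 0.15 for Adgre1 (SE). Over all lists, 0 of the 131 entries tested passed edgeR with all 6 libraries, where 0.00627% of all genes did. In DESeq2, 3 of the 120 entries given an adjusted p passed, Fos, Saa3 and Fpr2, where 0.555% of all genes did. Without siNC 2, 11 of 132 entries passed edgeR, where 1.09% of all genes did. The lists were chosen with earlier results of these data known. Fpr2, a formyl peptide receptor, stood at 404, 338 and 391 CPM in siPiezo1 and at 278, 239 and 280 CPM in siNC (DESeq2 log2 fold change 0.50 ± 0.13, SE, adjusted p = 0.0234). Of 5 megakaryocyte and platelet genes 3 had at least 1 CPM in mean, and all 3 were more than 2 times above the next library in siNC 2. Pf4, the platelet chemokine, stood at 32.8, 38.2 and 39.7 CPM in siPiezo1 and at 28.9, 205 and 33.0 CPM in siNC. Ppbp was at 5.11 to 9.06 CPM in siPiezo1 and 6.50 to 37.8 CPM in siNC, and Itga2b at 3.94 to 4.41 CPM in siPiezo1 and 3.18 to 26.3 CPM in siNC. Proliferation genes were highest in siNC 2 in 10 of 10, but in 0 of them by more than 2 times. They summed to 670, 799 and 918 CPM in siPiezo1 and 604, 1198 and 607 CPM in siNC. Mki67 was at 195 to 290 CPM in siPiezo1 and 165 to 391 CPM in siNC, Pcna at 211 to 221 CPM in siPiezo1 and 197 to 248 CPM in siNC, and Top2a at 111 to 168 CPM in siPiezo1 and 91.9 to 233 CPM in siNC. The part of these cell types in the neutrophil genes' levels was not tested.

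Monocyte precursor genes were split: of 9 with at least 1 CPM in mean, siNC 2 was highest for 6 and lowest for 2. It was more than 2 times above the next library for 3, where 3.03% of all genes of at least 1 CPM were. These were Cd34, Kit and Nr4a1, with ratios to the next library of 6.53, 3.11 and 2.1. In siNC 2 Cd34 stood at 7.72 CPM and Kit at 7.4 CPM, against at most 1.18 and 2.38 CPM in the other libraries. Ly6c2, a surface protein of inflammatory monocytes, stood at 203, 196 and 222 CPM in siPiezo1 and at 115, 222 and 120 CPM in siNC. It rose without siNC 2 (0.81 ± 0.07, SE, edgeR adjusted p = 0.00357), and with all 6 libraries it had 0.44 ± 0.26 (SE). Ms4a4c was at 69.7 to 78.4 CPM in siPiezo1 and 15.3 to 90.0 CPM in siNC, and Vcan at 20.8 to 34.7 CPM in siPiezo1 and 22.4 to 57.4 CPM in siNC.

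Markers of the remaining lineages had low sums. The 10 eosinophil genes summed to 0.755 to 1.65 CPM in siPiezo1 and 2.60 to 3.72 CPM in siNC, led by Ccr3, Siglecf and Prg2, and 0 of the 10 reached a mean of 1 CPM. The 10 mast cell and basophil genes summed to 3.54 to 7.81 CPM in siPiezo1 and 4.02 to 24.1 CPM in siNC. Most of that was Hdc, the histidine decarboxylase, at 2.96 to 4.99 CPM in siPiezo1 and 2.75 to 20.5 CPM in siNC, followed by Prss34 and Gata2, each below 2 CPM in every library. Erythroid genes, led by the globins Hbb-bs, Hbb-bt and Hba-a1, summed to 8.81 to 12.1 CPM in siPiezo1 and 0.314 to 10.8 CPM in siNC, with siNC 3 lowest. Lymphoid genes, led by Ighm with Cd79a and Ms4a1 near 0, summed to 1.22 to 3.26 CPM in siPiezo1 and 2.69 to 4.56 CPM in siNC. Dendritic cell genes, led by Itgax, Xcr1 and Ccr7, summed to 3.99 to 6.86 CPM in siPiezo1 and 7.89 to 13.3 CPM in siNC. Stromal and endothelial genes summed to 12 to 13 CPM in siPiezo1 and 7.43 to 26.1 CPM in siNC. Of these, Pecam1 was at 1.24 to 3.69 CPM in siPiezo1 and 2.27 to 18.7 CPM in siNC, while the collagen genes Col1a1 and Col1a2 were not highest in siNC 2. The part of these lineages was not tested.

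**Figure D4:**
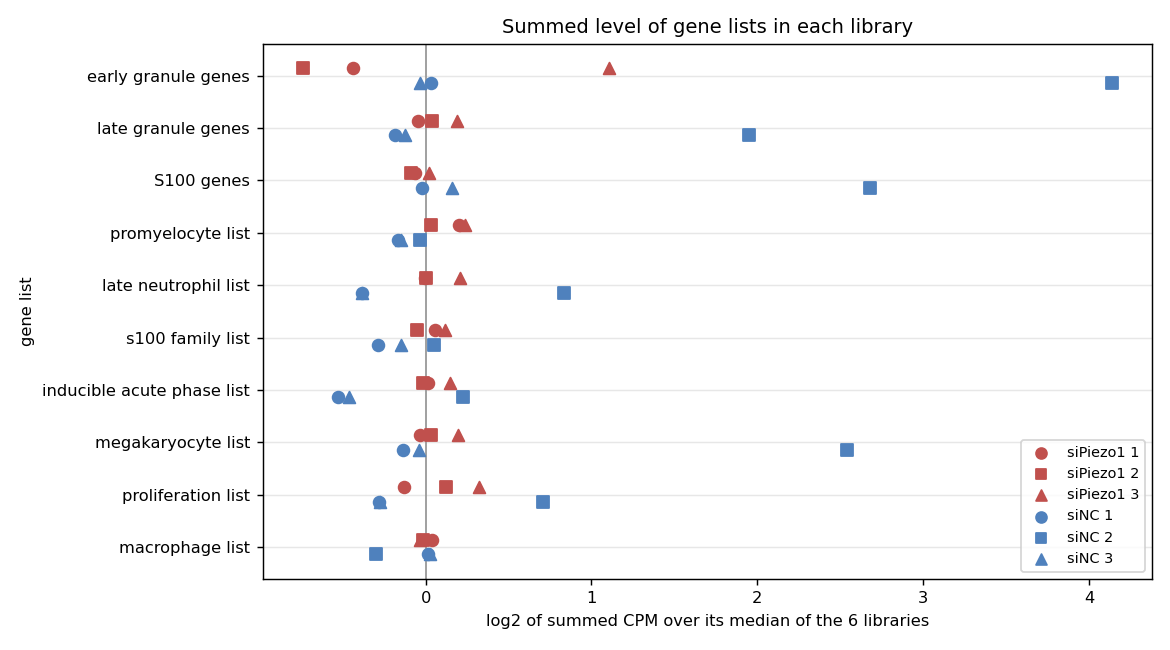
Summed CPM of each gene list in each library, as log2 of the ratio to the list's own median over the 6 libraries, with siPiezo1 in red above siNC in blue and the symbol marking the replicate. Library siNC 2 (blue square) lies far right for the early, late and S100 genes and the megakaryocyte list, and lowest for the macrophage list (42216 CPM against at least 50579 in the other libraries).

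Genes whose profile over the 6 libraries was most like the mean profile of the early granule genes were sought among 12414 genes, by the root mean square distance of centred log2(CPM + 0.5). The 5 nearest were Lum, Vcam1, U90926, Serpinb2 and Gja1, at distances of 0.297 to 0.409, where the early genes themselves lay at 0.245 to 0.281. Outside siNC 2, Lum stood at 0 to 0.688 CPM and U90926 at 0.0988 to 0.583 CPM. Such values are near the 0.5 added before the logarithm, so the rank of these genes depends on that constant. Serpinb2, a plasminogen activator inhibitor, stood at 5.86, 5.83 and 8.33 CPM in siPiezo1 and at 6.93, 133 and 3.93 CPM in siNC. Gja1, the gap junction protein connexin 43, stood at 19.3, 24.7 and 36.4 CPM in siPiezo1 and at 16.9, 258 and 14.9 CPM in siNC. Nearest to the late granule profile were Dusp6, Robo2, Il18rap, Uck2 and Palm, at distances of 0.0654 to 0.116. Robo2, too, was near the added 0.5 outside siNC 2, at 0.433 to 0.664 CPM. Ngp lay at 0.100 from the mean of its own group and Lcn2 at 0.381. Dusp6, a phosphatase of ERK, stood at 34.4, 39.3 and 34.4 CPM in siPiezo1 and at 30.6, 123 and 34.7 CPM in siNC. Likeness over 6 libraries of which 1 stands apart is carried largely by that library.

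Counts of 2 of the 10 genes share sequence with others. Exons of Gm11505 on the opposite strand cover 15.0% of the exon bases of Mpo, and those of Plppr3 cover 9.18% of Prtn3. Of the 50-base words of their transcripts, 9.46% for Mpo and 6.45% for Prtn3 occur in other genes. Gm11505 was at most 0.239 CPM in siPiezo1 and 1.31 CPM in siNC, and Plppr3 at 2.54 to 3.56 CPM in siPiezo1 and 2.92 to 11.2 CPM in siNC, each highest in siNC 2. Whether counting used the strand is not given in the sources used here, so reads of such partners cannot be told apart. For the other 8 genes no exon base was shared, and 0% of their 50-base words occurred in transcripts of other genes.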

How the data were processed

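Messenger RNA was isolated on oligo(dT) beads, second strands were marked with dUTP and removed, and libraries were sequenced as read pairs, per the labels' protocols. Cutadapt 1.9, HISAT2 2.0.4, StringTie 1.3.4d, DESeq2 and edgeR are named with build GRCm39 in the submitters' processing notes. Neither their roles nor the strand setting is given in the sources used here. The authors deposited whole-number estimated counts per Ensembl gene, without scaling, so no rounding was needed before the count test. The count tests took these values as they stood, not divided by the inferred 3.88 per fragment. Of 55401 identifiers 55141 matched a symbol. Samples were grouped by title, with 0 columns unmapped.

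The test used edgeR 4.0.16 under R 4.3.3: filterByExpr (15959 genes), TMM factors (0.988 to 1.028), a robust quasi-likelihood fit with group as the only term, and Benjamini-Hochberg adjustment over all tested genes at 0.05. SE is the log2 fold change without its sign over the root of the F statistic. CPM used the TMM factors, and CPM per kb the union of GENCODE M21 exons. The test was checked on simulated counts.

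As alternatives, normalization used DESeq2 size factors or raw library totals; the filter was dropped or set to 50 counts in 3 libraries; DESeq2 1.42.0 or limma-voom (limma 3.58.1) replaced edgeR; a replicate block was added; or a library was left out. The 10 genes and 16 further lists (172 entries) were chosen with earlier results of these data known. Besides the 10 genes, the text names each list's 3 genes of highest mean CPM, list genes past the threshold with or without siNC 2, and the 5 nearest profiles of each kind. A gene that this rule would name is not reported here. Genes outside this rule (such as Ctsg, Ms4a3, Gfi1, Myb, Irf8, Klf4, Cxcr2, Cd177, Mmp8, Fpr2, Csf3, Csf3r, Ly6g, Retnlg, Tlr4, Ager, Slc22a17, Cd34, Kit, Nr4a1 and Itgam) were named after their values were seen.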

Additional observations from a re-analysis of the deposited data

How the results depend on the processing

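None of the 13 alternatives called any of the 10 genes (DESeq2 gave a p to 7 of them). The count over all genes was 1 with all 6 libraries in edgeR's quasi-likelihood test. It was 88 with the DESeq2 test, 0 with library totals alone and 0 with the replicate block. Leaving out 1 library at a time it ranged from 0 to 180, with 180 without siNC replicate 2. In the settings that hold siNC 2 the direction is fixed by the choice of genes. There the log2 fold changes of the 10 genes kept the direction of all 6 libraries in 120 of 120 values. Over those settings they ranged from -3.77 to -1.16 for Elane, -3.50 to -1.33 for Mpo, -2.76 to -0.75 for Prtn3, -1.20 to -0.07 for Lcn2 and -1.99 to -0.82 for S100a8. The values nearest 0 came from the replicate block for all 10 genes, among them Lcn2 at -0.07 ± 0.74 (SE). Without siNC 2 the direction turned for 5 of 10: Elane (0.63), Mpo (0.06), Prtn3 (0.42), Lcn2 (0.82) and S100a8 (0.06). At an unadjusted p under 0.05 edgeR had 9 of the 10 genes lower without siNC 1 (4.94% of all genes) and 8 without siNC 3 (4.87%). The genes were chosen for siNC 2, which weighs more in its group in those fits, so these counts support nothing. Without any single siPiezo1 library the count was 0 (3.21% to 3.71% of all genes). Other scalings (DESeq2 size factors, library totals) moved no ratio of siNC 2 to the next library by more than the spread of the other 5 libraries. Whether the replicate numbers pair the libraries could not be decided. Deviations from the group means correlated at 0.0296, -0.0620 and -0.0861 for numbers 1, 2 and 3. The largest value was 0.123, for siPiezo1 3 with siNC 2, and siPiezo1 1 correlated best with siNC 3. The siNC mean includes siNC 2, which stood apart, so the deviations of siNC 1 and siNC 3 largely mirror that library. Depth limits Elane and Cebpe, with 16 to 61 fragments in each library other than siNC 2.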

Other observations

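Beside the calprotectin receptor Tlr4, the integrin gene Itgam (CD11b) varied widely within 1 group. It stood at 1394, 261 and 284 CPM in siPiezo1 and at 541, 664 and 391 CPM in siNC. Neither gene followed the neutrophil genes across the 6 libraries: Tlr4 was low in siPiezo1 1, siPiezo1 2 and siNC 2, and Itgam was highest in siPiezo1 1.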
